A study of Homo sapiens with 3 samples.

Results

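The genes described here are 9 genes that sense or handle protein folding in the endoplasmic reticulum (ER), taken as every probe set named XBP1, ERN1, ATF6, SEL1L, CALR, CANX, MANF, SDF2L1 or HYOU1 in the platform annotation. They had 10 probe sets, and all 9 were among the 8868 protein-coding genes compared, out of 14884 genes named on the array. Their expression was read from whole-transcript arrays of MDA-MB-231, a human cell line from a triple-negative breast cancer that is used as a model of invasive tumours. Cultures received 10 µM Mt-CFX for 72 h, 10 µM CFX for 72 h, or 1% DMSO for 72 h as the vehicle control. Ciprofloxacin, a fluoroquinolone antibiotic, is named in the title of the series, while for Mt-CFX the labels give a code name and nothing on its structure. A DMSO content is stated only for the control, so an effect of DMSO and an effect of a compound cannot be told apart in a difference from the control. Since each group was a single array (n = 1), there is no replicate error and no test was possible, and every difference below is a description of these arrays.

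The ER is where secreted and membrane proteins fold. When unfolded proteins accumulate there, 3 membrane sensors start the unfolded protein response: IRE1, encoded by ERN1, ATF6, and PERK, encoded by EIF2AK3. IRE1 splices the mRNA of XBP1 into the form that encodes an active transcription factor, ATF6 is cleaved into one, and PERK phosphorylates eIF2α, which slows translation and favours translation of ATF4. ATF6 and spliced XBP1 are known to raise transcription of ER chaperones and of genes of ER-associated degradation (ERAD), the route by which misfolded proteins leave the ER for the proteasome. Cancer cells with a high secretory load are known to lean on this system.

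A known route to the chaperone genes runs through short promoter elements, so the 250 bases before the RefSeq start site (build GRCh38.p14) were searched on both strands. The ER stress response element (ERSE) was searched as CCAAT followed by 9 bases of any kind and then CCACG. The shorter ERSE-II was searched as ATTGG followed by 1 base of any kind and then CCACG, and the unfolded protein response element (UPRE) as TGACGTGG. All 9 genes had a promoter in the RefSeq table, and the first listed start site of each was used. An exact match stood in 5 of the 9 promoters. These are printed below 5′ to 3′ on the strand of the gene, with the matches in capitals. With Mt-CFX their genes stood at unlike differences. XBP1 was higher than the control and CALR and SDF2L1 were lower. CANX was nearly equal to it, and the direction of HYOU1 depended on the probe set.
XBP1, chr22:28800570-28800819, minus strand: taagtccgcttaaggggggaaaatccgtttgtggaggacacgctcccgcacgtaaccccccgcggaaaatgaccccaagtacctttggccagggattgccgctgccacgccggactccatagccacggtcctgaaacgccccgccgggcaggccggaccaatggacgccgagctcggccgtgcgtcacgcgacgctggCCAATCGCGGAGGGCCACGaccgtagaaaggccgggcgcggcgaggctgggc
CALR, chr19:12938359-12938608, plus strand: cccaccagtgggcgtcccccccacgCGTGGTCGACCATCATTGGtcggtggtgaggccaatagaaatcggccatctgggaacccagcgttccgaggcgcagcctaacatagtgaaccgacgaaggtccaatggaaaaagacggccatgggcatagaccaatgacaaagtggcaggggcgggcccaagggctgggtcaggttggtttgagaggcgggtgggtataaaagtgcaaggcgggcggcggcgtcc
CANX, chr5:179698679-179698928, plus strand: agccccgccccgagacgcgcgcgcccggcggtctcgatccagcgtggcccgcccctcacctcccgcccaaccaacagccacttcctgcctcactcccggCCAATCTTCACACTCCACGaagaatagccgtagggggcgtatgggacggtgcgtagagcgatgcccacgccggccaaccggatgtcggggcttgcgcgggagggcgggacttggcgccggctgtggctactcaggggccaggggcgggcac
SDF2L1, chr22:21642052-21642301, plus strand: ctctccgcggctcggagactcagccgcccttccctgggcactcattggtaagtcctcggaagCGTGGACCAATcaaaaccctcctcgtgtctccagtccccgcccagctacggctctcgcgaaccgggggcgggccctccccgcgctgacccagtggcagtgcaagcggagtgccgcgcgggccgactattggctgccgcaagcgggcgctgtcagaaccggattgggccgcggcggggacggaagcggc
HYOU1, chr11:119057206-119057455, minus strand: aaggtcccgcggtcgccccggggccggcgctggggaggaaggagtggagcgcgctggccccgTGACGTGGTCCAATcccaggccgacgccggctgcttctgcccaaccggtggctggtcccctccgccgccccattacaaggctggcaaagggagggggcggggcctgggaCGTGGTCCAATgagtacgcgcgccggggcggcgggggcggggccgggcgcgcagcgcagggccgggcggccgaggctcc
The ERSE match was on the strand of the gene in XBP1 and CANX, and on the opposite strand in CALR. HYOU1 had 2 matches to ERSE-II and 1 to UPRE, which overlaps the ERSE-II match farther from the start site, and SDF2L1 had 1 match to ERSE-II. Of 27305 promoters, 1 per gene, 0.0806% held an exact ERSE, 0.0513% an exact ERSE-II and 0.667% an exact UPRE. The promoters of ERN1, ATF6, SEL1L and MANF held none of these letters in this window. XBP1 has another listed start site whose window held no match, and of the other 3 windows of CANX, 1 held the same ERSE. A match of letters does not show that a site is used, and use of these elements was not tested.

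**Figure D1:**
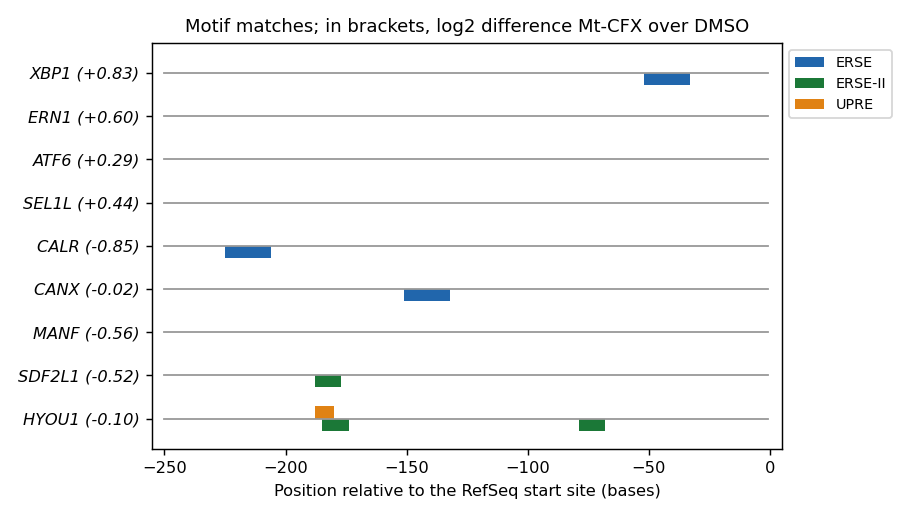
Positions of exact ERSE, ERSE-II and UPRE matches in the 250 bases before the RefSeq start site of each gene, in bases on the horizontal axis, with the Mt-CFX over DMSO log2 difference in brackets. The ERSE matches belong to XBP1 at +0.83, CALR at −0.85 and CANX at −0.02. Whether the elements had a part in these differences was not tested.

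With Mt-CFX, XBP1 and the sensor gene ERN1 were higher than in the vehicle control by at least 1.5-fold, and the chaperone gene CALR was lower by at least that size. All 4 of XBP1, ERN1, ATF6 and SEL1L were higher, by 0.29 to 0.83 log2. All 5 of CALR, CANX, MANF, SDF2L1 and HYOU1 were lower at the probe set used, from −0.85 log2 for CALR to −0.02 log2 for CANX, while the other probe set of HYOU1 was higher by 0.05. By any amount, 23.9% of all genes compared were higher, 23.2% lower and 52.9% equal. In RNA of a whole culture, fewer cells that express a gene and less RNA of it per cell cannot be told apart. At a size of 1.5-fold, which is a log2 difference of 0.58, XBP1 and ERN1 were higher and CALR was lower, 3 of the 9 genes. Of all 8868 genes compared, 2.71% differed by 1.5-fold or more in either direction, 1.45% higher and 1.25% lower. None of the 9 genes differed by 2-fold, a size that 0.564% of all genes reached. The 1.5-fold size was chosen with this known, so the count of 3 depends on that choice.

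XBP1, the transcription factor gene downstream of IRE1 (probe set 16933535), was at 7.99 log2 on the Mt-CFX array, 7.23 on the CFX array and 7.16 on the control array. The Mt-CFX array was high and the other two lay close together. Its difference of Mt-CFX over control was 0.83 log2, or 1.77-fold, and 56 of the 8868 genes had a higher one. The probe set gives a level for the gene, so spliced and unspliced XBP1 mRNA could not be told apart. ERN1, the gene for the sensor IRE1 that splices XBP1 (probe set 16847771), was at 5.77 with Mt-CFX, 5.05 with CFX and 5.17 in the control. Its difference was 0.60 log2, or 1.51-fold, just inside the size used, and 124 genes had a higher one.

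ATF6, the gene for the sensor that is cut in the Golgi to release a transcription factor (probe set 16672988), was at 8.33 with Mt-CFX and at exactly the same value, 8.05, with CFX and in the control. The difference of 0.29 log2 was below the size used, and 10.6% of all genes differed at least as much. SEL1L, the adaptor that holds the ERAD ubiquitin ligase complex together (probe set 16795394), was at 8.21 with Mt-CFX, 7.87 with CFX and 7.77 in the control. That is a difference of 0.44 log2, or 1.36-fold, which 5.29% of genes matched or passed in size. All 4 genes of this group therefore had their highest value on the Mt-CFX array.

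CALR (probe set 16858774) encodes calreticulin, a calcium-binding chaperone of the ER lumen that holds newly made glycoproteins. It was at 10.22 with Mt-CFX, 10.88 with CFX and 11.07 in the control, so the order was Mt-CFX lowest and control highest. Mt-CFX over control was −0.85 log2, or 0.554 of the control level, and 33 genes of 8868 had a lower difference. Of the 44 genes whose mean over the 3 arrays was at least 10 log2, 3 differed by 1.5-fold and 0 were lower than CALR. Calnexin, encoded by CANX (probe set 16993397), is the membrane-bound partner of calreticulin in the same glycoprotein cycle. It was at 10.50 with Mt-CFX, 10.51 with CFX and 10.52 in the control, nearly the same value on the 3 arrays, and its Mt-CFX over control difference was −0.02 log2. The pair of lectin chaperones thus had unlike differences. Both promoters hold an exact ERSE, and whether it had a part in either difference was not tested.

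MANF (probe set 16941167) encodes a small secreted and ER-resident protein that binds the ER Hsp70 chaperone BiP and protects cells under ER stress. It was at 5.73 with Mt-CFX, 6.23 with CFX and 6.29 in the control, a difference of −0.56 log2 or 0.679 of the control level. SDF2L1, a subunit of a BiP cochaperone complex of the ER (probe set 16927633), was at 4.71 with Mt-CFX and at exactly 5.23 with CFX and in the control. Its difference was −0.52 log2, or 0.697 of the control level. Both lay just outside the 1.5-fold size, with 129 genes lower than MANF and 154 lower than SDF2L1.

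HYOU1 encodes a large ER chaperone of the Hsp70 superfamily that serves BiP as a nucleotide exchange factor. At the probe set used, 16745186, it was at 8.62 with Mt-CFX, 8.58 with CFX and 8.72 in the control, a difference of −0.10 log2 for Mt-CFX and −0.15 for CFX. Its other probe set, 16732106, the only second one among the 9 genes, was at 5.01 with Mt-CFX, 4.90 with CFX and 4.96 in the control. There Mt-CFX over control was 0.05 log2 and CFX over control −0.06, so the direction with Mt-CFX depended on the probe set, and HYOU1 cannot be given one.

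**Figure D2:**
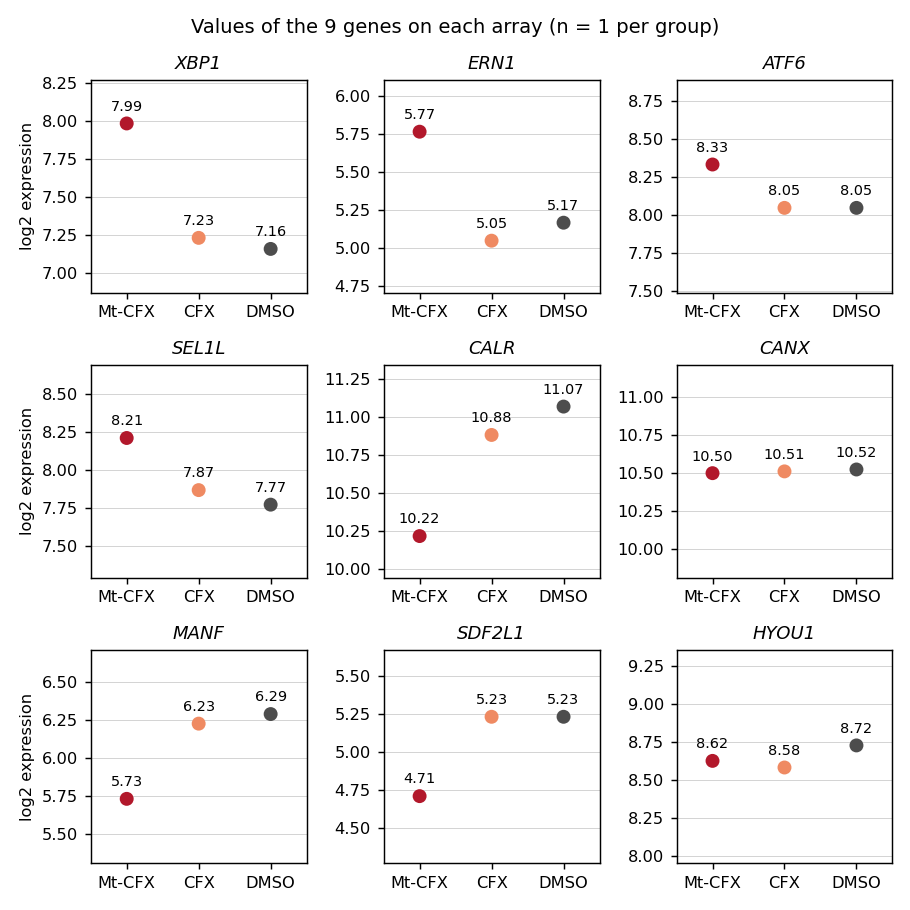
Log2 expression of each of the 9 genes on the Mt-CFX, CFX and DMSO control arrays, 1 point per array, with panels of equal height on the vertical axis. XBP1, ERN1, ATF6 and SEL1L were highest with Mt-CFX, CALR, MANF and SDF2L1 were lowest with it, and CANX lay between 10.50 and 10.52 on all 3 arrays.

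With CFX, given as 10 µM for 72 h too, the values of these genes were close to those of the vehicle control. Differences ran from −0.19 log2 for CALR to 0.10 for SEL1L, and 0 of the 9 genes reached 1.5-fold, a size that 0.147% of all genes reached in this comparison, 0.0451% higher and 0.101% lower. XBP1 was at 0.07 log2, ERN1 at −0.12, CANX at −0.01 and MANF at −0.06, while ATF6 and SDF2L1 had values equal to the control. Over the chaperones and their cofactors 4 of 5 were lower and 1 was equal, beside 15% of all genes lower and 59.2% equal. Among the 8868 genes 230 had a lower difference than CALR, and 6.66% differed at least as much in either direction. ERN1 thus had differences of opposite sign from the shared control, 0.60 log2 with Mt-CFX and −0.12 with CFX.

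**Figure D3:**
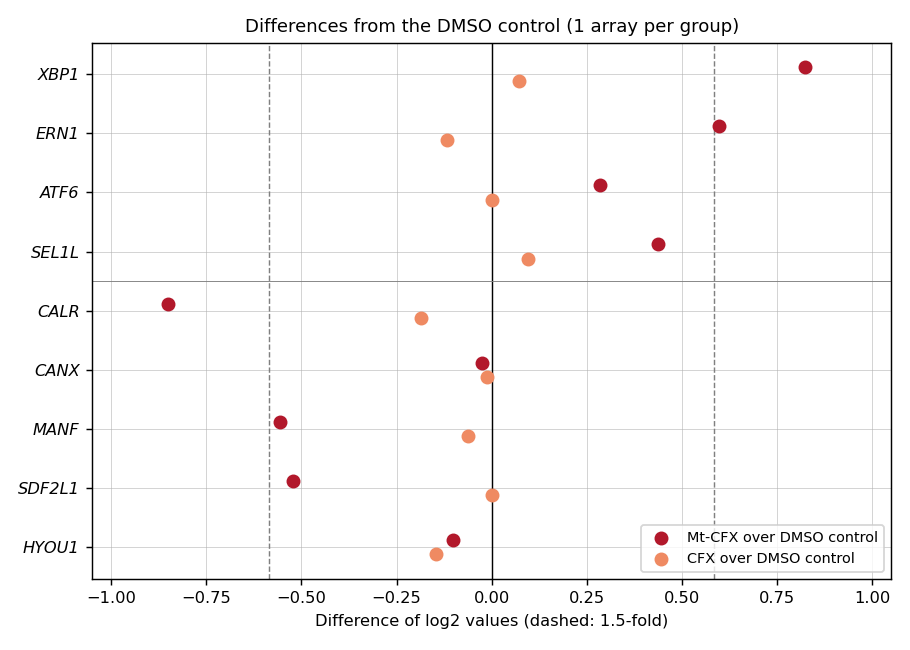
Differences from the DMSO control in log2 on the horizontal axis, for Mt-CFX in dark red and CFX in orange, with dashed lines at 1.5-fold. XBP1 and ERN1 lie beyond the upper line and CALR beyond the lower line with Mt-CFX, and all CFX points lie between −0.19 and 0.10. Both series share the control array.

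Compared with CFX, given at the same 10 µM for the same 72 h, XBP1 was 0.75 log2 higher with Mt-CFX, or 1.68-fold, and ERN1 was 0.72 log2 higher, or 1.64-fold. CALR had a difference of −0.66 log2 and stood at 0.631 of its CFX level. These 3 of 9 genes reached 1.5-fold, beside 2.15% of all genes, 1.13% higher and 1.03% lower, and 0 of the 9 reached 2-fold, beside 0.383% of all genes. SEL1L was at 0.34, ATF6 at 0.29, MANF at −0.49, SDF2L1 at −0.52, CANX at −0.01 and HYOU1 at 0.04 log2, all short of that size. HYOU1 was at 0.11 log2 at its other probe set. No interval can be given for these differences with a single array for each compound, so like values of a gene on both arrays do not show that the compounds act alike on it.

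The share of genes that reached 1.5-fold differed with the level at which genes were measured. With Mt-CFX over control, 1.38% of genes in the lowest tercile of mean level reached 1.5-fold, against 2.79% in the middle and 3.96% in the highest. XBP1, ATF6, SEL1L, CALR, CANX and HYOU1 belonged to the highest tercile, ERN1 and MANF to the middle and SDF2L1 to the lowest. Equal values on both arrays were common, at 52.9% of genes for Mt-CFX over control, and 0 of the 9 genes were equal in that comparison. Of the 44 genes with a mean of at least 10 log2, which include CALR and CANX, 1 was equal in it. The 9 genes were also chosen with earlier results known, so the count of 0 only describes them.

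**Figure D4:**
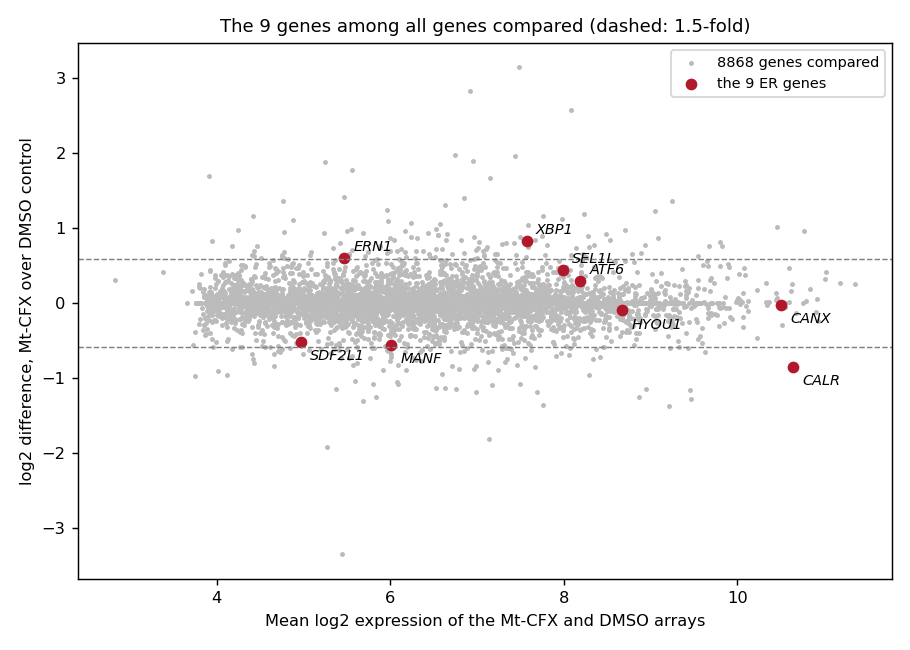
Difference of Mt-CFX over DMSO control (log2, vertical axis) against the mean log2 level of those arrays (horizontal axis) for the 8868 genes compared in grey and the 9 ER genes in red, with dashed lines at 1.5-fold. XBP1 and ERN1 lie above the upper line and CALR below the lower line, at the high end of the level range.

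Among the genes that could be compared, the lists of the wider ER folding system had medians at or near 0.00. Of 220 genes in 11 lists of ER and unfolded protein response genes, 131 could be compared, and with Mt-CFX over control 35 were higher, 44 lower and 52 equal, with a median of 0.00 log2. Over all genes compared the median was also 0.00, with 23.9% higher and 23.2% lower. Because 52.9% of all genes were equal, a list median near 0.00 says little about the list. Without the 9 genes, 122 remained, of which 1 was higher and 1 lower at 1.5-fold, beside the 2.71% of all genes. With CFX over control 0 of the 131 reached that size. The chaperone genes HSPA5 and HSP90B1, the cochaperone gene DNAJB9 and the ERAD gene HERPUD1 have no named probe set in the annotation used and were not analysed here. The same holds for the disulfide isomerase genes P4HB, PDIA3, PDIA4 and PDIA6, the cochaperone genes DNAJB11 and DNAJC3 and the ERAD genes SYVN1 and EDEM1. Much of the system was therefore not measured.

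Among sensors and regulators, EIF2AK3, which encodes PERK, was at 6.31 on all 3 arrays. ATF6B, a relative of ATF6, and RTCB, the ligase that joins the XBP1 exons after IRE1 has cut, were also equal on all 3 arrays. CREB3L2, a membrane-bound transcription factor of the ATF6 kind, was at 6.80 with Mt-CFX and 7.20 with CFX and in the control, a difference of −0.40 log2. TMBIM6, an ER membrane protein that restrains cell death and IRE1, was at 0.29 log2. Over the 14 genes of this list 4 were higher with Mt-CFX, 5 lower and 5 equal, and the 2 that reached 1.5-fold were XBP1 and ERN1.

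In the ER Hsp70 list 9 of 20 genes could be compared. With Mt-CFX 1 of those compared was higher, 3 lower and 5 equal to the control, and 0 reached 1.5-fold. The lower ones were MANF, SDF2L1 and HYOU1, the last at the probe set used. SEC63, a J-protein of the translocon, was at 0.26 log2, while SDF2, the close relative of SDF2L1, and CRELD2, an ER stress-induced protein, had equal values on all 3 arrays. Of 11 lectins and glycan-processing genes 5 were higher, 5 lower and 1 equal. Beside CALR the lower ones were led by MLEC, the glycan-binding malectin, at −0.36 log2 with −0.01 at its other probe set, and PRKCSH, the β subunit of glucosidase II, at −0.27. UGGT2, of the family that reglucosylates misfolded glycoproteins, was at 0.31, and ERLEC1, an ERAD lectin, at 0.17. UGGT1, which has the same function, was equal on all 3 arrays.

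Of 28 disulfide isomerase, oxidase and prolyl isomerase genes 14 could be compared, which leaves out P4HB and PDIA2 to PDIA6. Of the 14 compared, 3 were higher with Mt-CFX, 5 lower and 6 equal, and 0 reached 1.5-fold. FKBP7 was at −0.26 log2, PPIB, which encodes cyclophilin B, at −0.19, QSOX2 at −0.18 and ERP29 at 0.10. In the ERAD list, which holds SEL1L, 8 of 26 genes were higher, 10 lower and 8 equal. FOXRED2, an ER flavoprotein of ERAD, was at 7.06 with Mt-CFX, 7.60 with CFX and 7.66 in the control, a difference of −0.61 log2 and the 1 gene of this list at 1.5-fold. RHBDD1, a rhomboid protease of ERAD, was at 6.11 with Mt-CFX, 5.61 with CFX and 5.54 in the control, a difference of 0.57 log2. The ubiquitin ligase gene RNF185 was at 0.29, with 0.17 at its other probe set, and ERLIN1, part of the complex that takes activated calcium channels to ERAD, at −0.38. VCP, the ATPase that pulls substrates out of the membrane, was at −0.07.

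Genes of protein entry and exit also went both ways. Of 28 genes of the translocon, signal peptidase and oligosaccharyltransferase, 8 were higher with Mt-CFX, 8 lower and 12 equal, with OSTC at 0.38 and RPN1 at −0.36 log2. Of 15 genes of export and retrieval 4 were higher, 3 lower and 8 equal. KDELR3, a receptor that returns ER proteins from the Golgi, was lowest at −0.35, and KDELR1 was at −0.11. The highest were MCFD2 at 0.12, SEC23A at 0.08 and SEC16A at 0.07. Among 12 genes of ER calcium handling, CALR was the 1 gene at 1.5-fold, and the other 11 lay between −0.10 and 0.09 log2.

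A list of 23 genes known to respond to ATF6 or XBP1 had 10 that could be compared, 6 of them among the 9 genes described here. With Mt-CFX 4 were higher, 4 lower and 2 equal, with a median of 0.00 log2. The higher ones were XBP1 at 0.83, SEL1L at 0.44, SERP1 at 0.05 (0.39 at its other probe set) and DERL3 at 0.04. The lower ones were CALR, MANF, SDF2L1 and, at the probe set used, HYOU1. At its other probe set HYOU1 was at 0.05. Of 5 known targets of RNA decay by IRE1, HGSNAT alone could be compared, and it was equal on all 3 arrays.

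The list for the PERK and ATF4 arm of the response was set with earlier results of these data known. Its counts beside all genes therefore only describe it. In this list 9 genes were compared, of which DDIT3 passed the floor through the Mt-CFX array alone. DDIT3 was at 4.75 log2 there against 3.06 with CFX and in the control. Of the 8 genes above the floor on all 3 arrays, a choice made after the values were seen, 7 were higher with Mt-CFX and 6 reached 1.5-fold, beside 23.9% and 2.71% of all genes, with a median of 1.01 log2. With DDIT3 included the median was 1.18 log2. ATF4 was at 0.83, DDIT3 at 1.69 and TRIB3 at 1.97 log2, while EIF2AK3 itself was equal. DDIT4 was at 2.58, SESN2 at 1.66, ASNS at 1.18, ATF3 at 0.69 and VLDLR at 0.28. Whether PERK had a part in these differences was not tested. With CFX the 8 genes had a median of 0.08 log2 and 0 of them reached 1.5-fold, beside 0.147% of all genes. The DDIT3 values below the floor of 3.89 log2 leave the size of its difference uncertain.

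**Figure D5:**
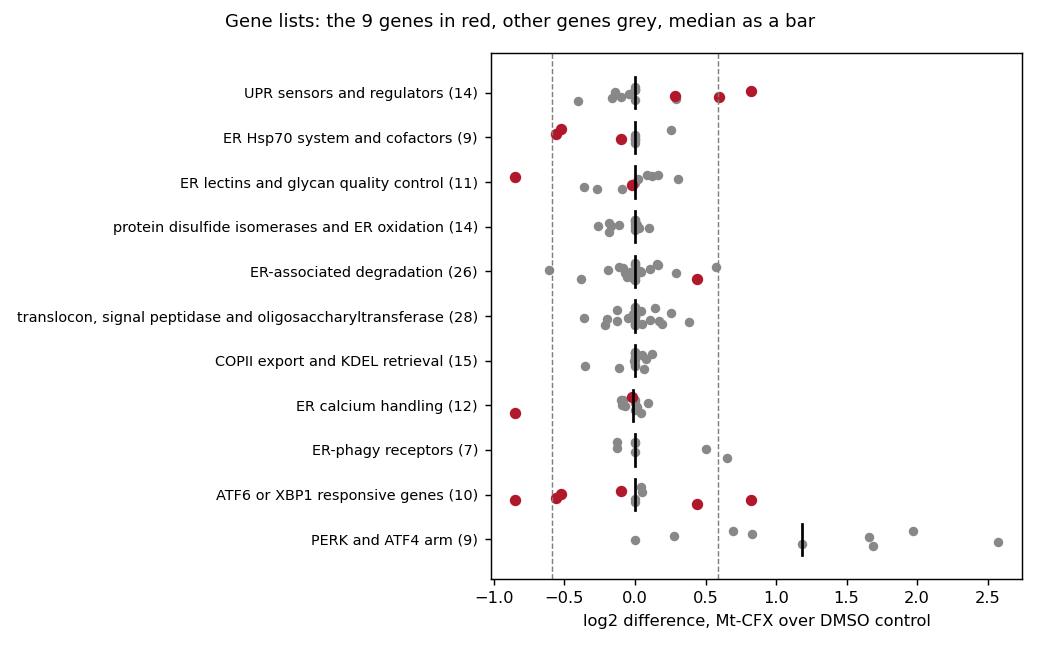
Log2 difference of Mt-CFX over DMSO control (horizontal axis) for the genes of each list, with the number compared in brackets, the 9 ER genes in red, other genes in grey, the list median as a bar and dashed lines at 1.5-fold. The ER lists have medians at or near 0.00 and the PERK and ATF4 arm one of 1.18 log2, with DDIT3 included. Equal values were common, so a median near 0.00 says little about a list. Genes in several lists appear in each.

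The genes nearest to the 3 that reached 1.5-fold were found by Euclidean distance over 2 values, the differences of CFX and of Mt-CFX from the control. Nearest to XBP1 were OGT at a distance of 0.05, NAMPT at 0.05 and TES at 0.06 log2. Nearest to ERN1 were CCDC122, ANKRD29 and NPIPA1, at 0.05 to 0.06. Nearest to CALR were EMP2 at 0.02, CSF1 at 0.07 and SYNJ2 at 0.08. OGT was at 0.81 with Mt-CFX over control and EMP2 at −0.84. With 3 arrays such likeness describes these arrays and no more.

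Facts of the whole series bear on these values. The median over all probe sets was 3.88 log2 on the Mt-CFX array, 3.90 on the CFX array and 3.91 on the control array, and the arrays had been given near-equal distributions. Of the 5 measured markers that MDA-MB-231 cells are known to express, VIM, CD44, AXL, ANXA1 and MSN, all were above the floor on all 3 arrays. Of the luminal markers PGR was below the floor on all 3 arrays, ESR1 was below it except with CFX at 3.92, and EPCAM, GATA3 and FOXA1 were above it. Of markers of other cell types PECAM1 and ALB were below the floor on all 3 arrays, and CD68, which tumour cells can also express, was above it. The share of these markers in the results above was not tested.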

How the data were processed

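Each of the 3 groups was 1 array. The deposited table holds 1 log2 value per probe set and array. Per the submitters' processing notes the authors used RMA and Affymetrix Expression Console. The version, annotation release and genome build are not given in the sources used here. RMA gives all arrays near-equal distributions (sorted values at most 0.245 log2 apart), so differences in total RNA are not visible. Exactly equal values on all 3 arrays were found for 45.3% of the genes compared.

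Gene names came from the platform annotation, which gave 1 symbol to 16098 of 53617 probe sets and several to 0, and all were matched to the reference gene table by gene ID. The other 37519 were unnamed here. For a gene with several probe sets the one with the highest mean was used. Protein-coding genes were kept when their highest array reached the median of all values, 3.89 log2. The 9 genes passed with every array, so none entered through 1 group. Differences were taken between arrays, and 1.5-fold was used as a descriptive size. It was chosen because none of the 9 genes was 2-fold apart in results known earlier.

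The genes, lists and sizes were chosen with earlier results of these data known. Named genes are the 9, preset response genes, the 3 highest and 3 lowest of each list where they bear on it, list genes at 1.5-fold, nearest genes, and genes named for a contrast within a list after their values were seen. Promoters are from RefSeq, GRCh38.p14. Alternatives were averaged probe sets, a lowess curve (span 0.3) removed from the differences, their median over values other than 0 removed, other floors, 2-fold, every gene type, and 1 mismatch in a motif. Counting, re-centring and motif search were tested on simulated data. The simulated arrays held no exactly equal values, unlike these arrays, so re-centring was not tested on data with such values. Python 3.11.15, numpy 2.4.6, pandas 2.3.3, statsmodels 0.14.6 and matplotlib 3.10.9 were used. The number of arrays limits the precision.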

Additional observations from a re-analysis of the deposited data

How the results depend on the processing

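With 1 array per group no replicate could be left out, and no paired analysis was possible because no group has a second sample. For each of the 9 genes and 3 comparisons the difference moved by at most 0.03 log2 under re-centring. Averaged probe sets moved it by at most 0.07 log2, which affects HYOU1 alone, and no gene that reached 1.5-fold changed direction. In both comparisons with Mt-CFX the lowess curve took nothing from any of the 9 genes, so that setting was no check of them. At 2-fold the count of the 9 genes was 0 for Mt-CFX over control and 0 for Mt-CFX over CFX. Over the ER, unfolded protein response and PERK lists together it was 5 in each, beside 0.564% and 0.383% of all genes. All 5 were genes of the PERK and ATF4 list, namely DDIT3, TRIB3, ASNS, SESN2 and DDIT4. The ER and unfolded protein response lists had 131 genes compared and the PERK list 9, with EIF2AK3 in both. At 1.5-fold the list counts were 12 and 11, beside 2.71% and 2.15% of all genes. Of these, 7 in each comparison came from the PERK and ATF4 list, which was set with earlier results known. Other counts of the 9 genes and of the lists stayed within 1.5 times. The settings were other floors, the mean of probe sets, the lowess curve and every gene type. The percentage of all genes at 1.5-fold for CFX over control was 0.385% with every gene type and 0.0728% with a floor at the 75th percentile, against 0.147%. Limited to genes above the floor on all 3 arrays, a setting chosen after seeing the data, which leaves out DDIT3, the list counts were 11 for Mt-CFX over control and 10 for Mt-CFX over CFX. With 1 mismatch allowed, 7 of the 9 promoters held an element, against 5 with exact matches. No test was made, so a value kept under these settings says nothing about repeats of the cultures, and sizes near 1.5-fold, as for ERN1, MANF and SDF2L1, are not set apart from each other by these data.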

Other observations

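UFM1 and CALCOCO1, from the list of ER-phagy genes by which parts of the ER are degraded, were higher with Mt-CFX. CALCOCO1, an ER-phagy receptor, was at 5.85 with Mt-CFX, against 5.20 on each of the CFX and control arrays, a difference of 0.65 log2, or 1.57-fold. UFM1, the ubiquitin-like modifier attached to ribosomes at the ER, was at 6.83 with Mt-CFX, 6.46 with CFX and 6.33 in the control, a difference of 0.50 log2. Of the 7 genes compared in this list 2 were higher, 2 were lower and 3 were equal. SEC62, a translocon protein that is also an ER-phagy receptor, was at −0.13 log2 at the probe set used and at 0.66 at its other probe set, so its probe sets went opposite ways.

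Over all genes compared, 10 had an exact ERSE in the window searched and 10 an exact ERSE-II. With Mt-CFX over control 2 of the ERSE genes were higher, 6 lower and 2 equal. Among all genes compared 23.9% were higher, 23.2% lower and 52.9% equal. The ERSE genes called lower by any amount include CANX at −0.02 log2. Those that reached 1.5-fold were XBP1, higher, and CALR, lower, beside 2.71% of all genes. Of the ERSE-II genes 1 was higher, 6 were lower and 3 were equal, and 0 reached 1.5-fold. The 6 include HYOU1, whose direction depended on the probe set. Of 53 genes with an exact UPRE 16 were higher, 17 lower and 20 equal. At 1.5-fold 0 of them were higher and 1 was lower, LPCAT1 at −1.36 log2, with CFX over control at −0.43. The ERSE, ERSE-II and UPRE counts all include genes described above, so they are not independent of them. CRELD2 and ERO1B, an ER oxidase, hold an exact ERSE and were equal on all 3 arrays. SERP1, a translocon-associated protein that also holds one, was at 0.05 log2, with 0.39 at its other probe set. LPCAT1, CRELD2, ERO1B and SERP1 were named here after their values were seen.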
